A study of Mus musculus with 8 samples.

Results

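The FGF genes described here were 10 genes of the FGF signaling pathway, fixed by name: 4 receptors (*Fgfr1*, *Fgfr2*, *Fgfr3*, and *Fgfrl1*), 3 ligands (*Fgf2*, *Fgf7*, and *Fgf18*), and 3 Sprouty genes (*Spry1*, *Spry2*, and *Spry4*). All 10 were among the 16536 genes counted, and all 10 were among the 15421 that passed the filter on low counts. They were measured by bulk RNA sequencing in growth plate cells of Pthrp-mCherry mice, which carry a red fluorescent reporter for *Pthlh*, the gene of parathyroid hormone–related protein. The groups were 4 mice that received SAG, a Smoothened agonist that activates Hedgehog (Hh) signaling, and 4 mice that received the vehicle DMSO. Injections were intraperitoneal and daily from postnatal day 30 to day 36, and the mice were sacrificed on day 38. Cells of the femoral growth plates of each mouse were sorted for mCherry and for CD73, a surface enzyme of resting zone chondrocytes, and 1 library was made per mouse. The reporter and the sort were shared by both groups. SAG reached the whole animal, so cells outside the growth plate were exposed as well.

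FGF ligands bind receptor tyrosine kinases on the cell surface and, through adaptor proteins, RAS, and RAF, activate the ERK kinases. *Fgfr1*, *Fgfr2*, and *Fgfr3* encode such kinases, whereas the receptor-like protein of *Fgfrl1* binds ligand and lacks the tyrosine kinase domain. Sprouty proteins are induced by this signaling and restrain it, so their transcripts are commonly read as a trace of pathway activity. In the growth plate FGFR3 restrains chondrocyte proliferation, activating mutations of it cause achondroplasia, and FGF18, which comes largely from the perichondrium, is among its main ligands.

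The 4 receptors were the abundant members, and their means were lower with SAG by 0.61 to 0.93 on the log2 scale, yet 0 of the 10 FGF genes passed the test in either direction. The ligands and Sprouty genes were scarcer, and most were scattered between mice of the same group. *Fgf2* with DMSO and *Spry2* with SAG were less so. *Fgfr3* came nearest to a call, at a SAG mean of 52.4% of the DMSO mean. The receptors were lower by about as much as the markers of chondrocytes, and relative to those markers they were not lower in any of the 4 cases.

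Promoter windows are shown for 3 of the receptors, the abundant members, those for which a window was listed. Each window holds 250 bases before and 50 bases after a RefSeq transcription start (GRCm38.p6), on the gene's own strand from 5′ to 3′. Capitals mark GC boxes, the letters GGGCGG or their reverse complement, searched on both strands. *Fgfr3* has 2 listed starts, at chr5:33721474-33721773 and chr5:33722056-33722355 on the plus strand. The *Fgfrl1* window is chr5:108693979-108694278 on the plus strand, and the *Fgfr2* window is chr7:130266759-130267058 on the minus strand. This *Fgfr2* window lies well inside the annotated gene model (chr7:130162451-133123350) and not at the 5′ end of that model. The model also spans many other genes of the table, among them *Ate1*, *Oat*, and *Ctbp2* on the same strand and *Tacc2* on the opposite strand. Which start the counted *Fgfr2* transcripts used was not tested.
Fgfr3, first start: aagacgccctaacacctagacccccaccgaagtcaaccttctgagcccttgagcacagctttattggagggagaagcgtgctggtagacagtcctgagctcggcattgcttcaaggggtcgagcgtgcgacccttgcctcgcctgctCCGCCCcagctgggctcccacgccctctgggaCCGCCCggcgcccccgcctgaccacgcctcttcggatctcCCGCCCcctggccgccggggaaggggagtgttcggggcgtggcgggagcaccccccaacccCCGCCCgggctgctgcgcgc
Fgfr3, second start: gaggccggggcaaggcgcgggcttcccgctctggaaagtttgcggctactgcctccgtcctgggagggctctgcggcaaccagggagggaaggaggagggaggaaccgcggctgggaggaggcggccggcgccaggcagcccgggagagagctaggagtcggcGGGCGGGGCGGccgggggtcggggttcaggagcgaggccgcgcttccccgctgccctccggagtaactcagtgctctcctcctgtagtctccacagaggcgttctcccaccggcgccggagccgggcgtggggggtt
Fgfrl1: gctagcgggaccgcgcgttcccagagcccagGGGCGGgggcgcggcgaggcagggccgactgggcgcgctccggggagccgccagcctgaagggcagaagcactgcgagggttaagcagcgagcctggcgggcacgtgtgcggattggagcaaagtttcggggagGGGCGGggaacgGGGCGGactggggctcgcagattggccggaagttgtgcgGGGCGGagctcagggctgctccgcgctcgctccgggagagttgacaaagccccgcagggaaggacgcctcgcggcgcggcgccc
Fgfr2: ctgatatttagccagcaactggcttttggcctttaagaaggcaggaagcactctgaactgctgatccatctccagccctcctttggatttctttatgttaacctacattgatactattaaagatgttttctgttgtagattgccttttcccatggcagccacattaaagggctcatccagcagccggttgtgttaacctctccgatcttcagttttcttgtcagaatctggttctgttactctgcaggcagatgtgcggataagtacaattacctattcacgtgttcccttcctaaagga

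Both *Fgfr3* windows and the *Fgfrl1* window were rich in CpG dinucleotides, with 26 and 30 for *Fgfr3* and 37 for *Fgfrl1*, whereas the *Fgfr2* window held 4, against a median of 7 over all 32851 windows. The GC content was 69.7% and 73.0% for the *Fgfr3* windows, 73.7% for *Fgfrl1*, and 43.7% for *Fgfr2*, with a median of 52.7% over all windows. GC boxes numbered 4 and 2 in the *Fgfr3* windows, the latter overlapping each other, 4 in the *Fgfrl1* window, and 0 in the *Fgfr2* window. Windows were listed for 8 of the 10 FGF genes, 9 in all, and none was listed for *Fgfr1* or *Spry4*. The *Fgf18* window was the richest of the 9, with 47 CpG dinucleotides, followed by *Fgfrl1* and then by *Fgfr3*. *Spry1* had 29, *Spry2* 28, *Fgf2* 24, and *Fgf7* 11. A GC box was present in 6 of the 9 windows and in 35.7% of all windows. The letters GACCACCCA, a core of the sites that GLI factors of the Hh pathway bind, were found in 0 of the 9 windows and in 0.253% of all. The letters CCGGAAGT, which ETS factors bind, were found in 1 of the 9, that of *Fgfrl1*, and in 3.89% of all windows. TATAAA was found in 0 of the 9 and in 13.6% of all windows. All motifs were searched on both strands, and a match of letters is not a measured site.

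Total counts ranged from 24971992 to 46593090 per library, so that 3 counts, taken as the detection limit, corresponded to 0.0670 to 0.114 CPM, the unit of level used throughout (counts scaled to library size). The lowest total was that of DMSO replicate 4, which also stood apart from its group, with 14416 genes detected against 15524 to 16285 in the other 7 libraries, and with a median rank correlation of 0.857 with its own group against 0.926 to 0.950 for the others. The 15 chondrocyte markers of the sorted cells, such as *Col2a1* and *Acan*, were detected in every library. Their summed level was 51230 to 121080 CPM with DMSO, lowest in DMSO replicate 4, and 20995 to 58609 CPM with SAG, lowest in SAG replicate 2. Neutrophil markers were present throughout, at 4987 to 14762 CPM in sum with DMSO and 28334 to 45085 CPM with SAG, and 10 of 12 rose, among them *S100a8* by 2.25 ± 0.33 on the log2 scale (SE, n = 4 per group; edgeR's quasi-likelihood test, Benjamini-Hochberg adjusted p = 0.0102). B-lineage markers were scarcer, at 84.9 to 399 CPM in sum with DMSO and 24.9 to 49.8 CPM with SAG, and 3 of the 9 tested fell. In bulk RNA, fewer cells of a type and less RNA per cell cannot be told apart.

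*Fgfr3* (chr5:33721674-33737068, GRCm38, plus strand) was measured at 311, 233, 239, and 113 CPM in DMSO replicates 1 to 4 and at 142, 61.9, 112, and 154 CPM in SAG replicates 1 to 4. The first 3 DMSO mice lay above all SAG mice, and DMSO replicate 4 lay among them. The means were 224 ± 82.2 CPM with DMSO and 117 ± 41.1 CPM with SAG (SD, n = 4 each). The fitted log2 fold change was −0.93 ± 0.33 (SE), with a 95% interval from −1.66 to −0.20 and an unadjusted p of 0.0166 in edgeR. It did not pass after adjustment over all genes (edgeR, adjusted p = 0.180).

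*Fgfr1* (chr8:25513654-25575718, plus strand), a receptor of hypertrophic chondrocytes and of the perichondrium, was at 341, 209, 229, and 99.8 CPM with DMSO and at 172, 61.1, 126, and 148 CPM with SAG. As for *Fgfr3*, DMSO replicate 4 was the only DMSO mouse within the SAG range, and SAG replicate 2 was the lowest of all. The means were 220 ± 98.7 and 127 ± 47.5 CPM, a log2 fold change of −0.79 ± 0.37 with a 95% interval from −1.61 to 0.02 (edgeR, adjusted p = 0.327).

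*Fgfrl1* (chr5:108692382-108706924, plus strand), the receptor without a kinase domain, was at 146, 92.5, 127, and 59.9 CPM with DMSO and at 89.1, 23.7, 67.3, and 64.0 CPM with SAG. The same 2 libraries were the lowest of their groups. The log2 fold change was −0.80 ± 0.38, with a 95% interval from −1.63 to 0.03 (edgeR, adjusted p = 0.333).

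*Fgfr2* (chr7:130162451-133123350, minus strand), a receptor known for its role in osteoblast-lineage and perichondrial cells, was at 161, 95.5, 165, and 93.7 CPM with DMSO and at 93.5, 27.8, 92.4, and 123 CPM with SAG. Here 2 DMSO mice lay within the SAG range. Its log2 fold change of −0.61 ± 0.38 was the smallest of the 4 receptors, with a 95% interval from −1.45 to 0.22 (edgeR, adjusted p = 0.492). The summed level of 10 osteoblast markers overlapped between the groups as well, at 2693 to 11013 CPM with DMSO and 2468 to 4569 CPM with SAG. All 10 had an edgeR log2 fold change below 0, with a median of −0.89. Of these markers edgeR called 0, and DESeq2 called 3 lower, *Alpl*, *Spp1*, and *Bglap*. The annotated model of *Fgfr2* shares 314 exon bases with *Ctbp2* on the same strand, and *Ctbp2* stood at 18.4 CPM with DMSO and 22.4 CPM with SAG.

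**Figure D1:**
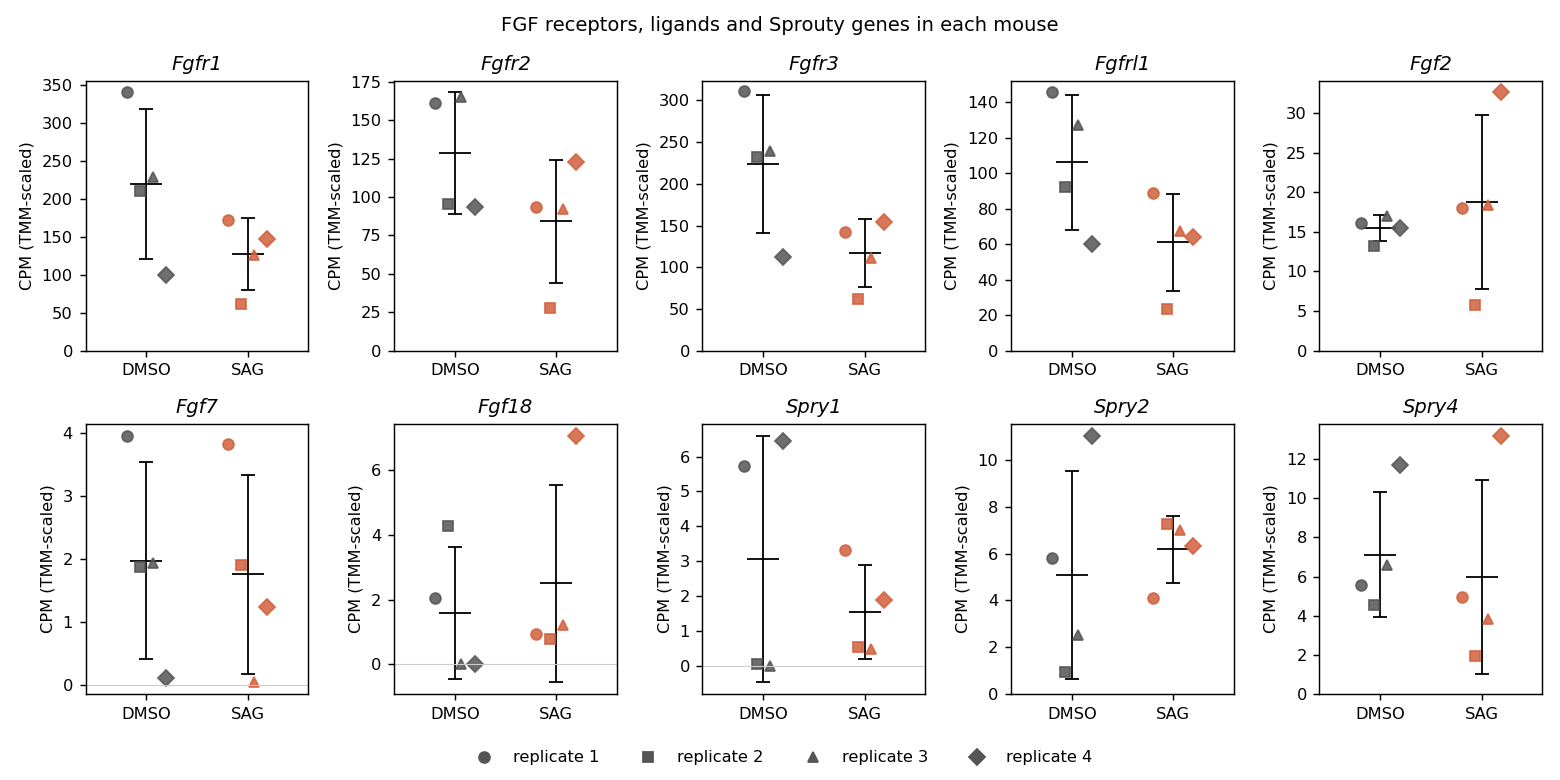
Level of each FGF gene in each mouse, in CPM with TMM scaling on linear axes, with DMSO in grey and SAG in orange; symbols give the replicate, the horizontal dash the mean, and the bars the SD (n = 4). The 4 receptors lie lower on average with SAG with overlapping groups. *Fgf7*, *Fgf18*, and *Spry1* spread widely within both groups, *Spry2* with DMSO, and *Spry4* with SAG.

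The ligands were read next. *Fgf2* (chr3:37348346-37410108, plus strand), a matrix-bound growth factor that many mesenchymal cells make, was at 16.1, 13.2, 17.1, and 15.5 CPM with DMSO and at 18.02, 5.82, 18.4, and 32.7 CPM with SAG. The DMSO mice were close together and the SAG mice lay on both sides of them. The means were 15.5 ± 1.65 and 18.7 ± 10.98 CPM, and the log2 fold change was 0.28 ± 0.45, with a 95% interval from −0.70 to 1.26 (edgeR, adjusted p = 0.841). *Fgf2* shares 640 exon bases with *Nudt6* on the opposite strand, which stood at 2.01 CPM with DMSO and 2.20 CPM with SAG. Reads of the pair may not have been separated, since the strand setting of the counting is not given in the sources used here.

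*Fgf18* (chr11:33117430-33147400, minus strand) had 88, 192, 0, and 0 counts in DMSO replicates 1 to 4 and 33, 33, 49, and 309 counts in SAG replicates 1 to 4. The zeros of DMSO replicates 3 and 4 allow levels of up to 0.0906 and 0.114 CPM, for counting error alone. In CPM the DMSO values were 2.05, 4.29, 0, and 0 and the SAG values 0.949, 0.784, 1.22, and 7.05, so that 1 SAG mouse set the SAG mean. The summed level of 8 perichondrial and fibroblast markers overlapped between the groups, at 527 to 1158 CPM with DMSO and 457 to 677 CPM with SAG. These markers did not move together. The log2 fold change was below 0 for 7 of the 8, none of them called, while *Pi16* was called higher, at 1.30 (edgeR, adjusted p = 0.0140). The 95% interval of the log2 fold change of 0.65 ± 1.63 ran from −2.91 to 4.22 (edgeR, adjusted p = 0.902).

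*Fgf7* (chr2:126034658-126091185, plus strand), a fibroblast-derived growth factor that acts on epithelia, had 169, 84, 64, and 3 counts with DMSO and 133, 80, 2, and 54 counts with SAG. One mouse of each group was at or under the detection limit of 3 counts. The log2 fold change was −0.17 ± 1.28, with a 95% interval from −2.96 to 2.63 (edgeR, adjusted p = 0.969). The intervals of both *Fgf7* and *Fgf18* reached past a 4-fold change in either direction.

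Among the Sprouty genes, *Spry2* (chr14:105891947-105896819, minus strand) was at 5.83, 0.938, 2.51, and 11.01 CPM with DMSO and at 4.11, 7.27, 7.0, and 6.34 CPM with SAG. All 4 SAG mice lay within the DMSO range. The means were 5.07 ± 4.45 and 6.18 ± 1.43 CPM, and the log2 fold change was 0.29 ± 0.72, with a 95% interval from −1.28 to 1.86 (edgeR, adjusted p = 0.902). *Spry4* was at 5.57, 4.53, 6.61, and 11.7 CPM with DMSO and at 4.94, 1.95, 3.84, and 13.2 CPM with SAG. Replicate 4 was the highest in either group, and the log2 fold change was −0.25 ± 0.65, with a 95% interval from −1.67 to 1.17 (edgeR, adjusted p = 0.906).

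*Spry1* (chr3:37639947-37644598, plus strand) had 246, 2, 0, and 170 counts with DMSO and 115, 22, 19, and 82 counts with SAG. Within the DMSO group, 2 mice were under the detection limit and the other 2 were above every SAG mouse. The log2 fold change was −0.99 ± 1.56, with a 95% interval from −4.41 to 2.44 (edgeR, adjusted p = 0.838). Its fitted direction depended on the method, as limma voom gave 2.53 and a fit with a replicate block gave 1.21.

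The spread between mice separated the receptors from the other members. The coefficient of variation between mice beyond counting error, the square root of the dispersion that edgeR fitted, was 34.9% for *Fgfr3*, 38.3% for *Fgfr1*, 38.8% for *Fgfrl1*, and 39.3% for *Fgfr2*, all under the median of 46.5% over all tested genes. *Fgf2* was close to that median, at 47%. *Spry4* had 66.0% and *Spry2* 72.1%, and the values were 116% for *Fgf7*, 141% for *Spry1*, and 150% for *Fgf18*. The median was not matched for level, and *Fgf7*, *Spry1*, and *Fgf18* were also the scarcest members in mean CPM. Whether the spread followed the level was not tested.

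Across all genes, 404 were called higher with SAG (2.62% of those tested) and 41 lower (0.266%) at an edgeR adjusted p under 0.05, and 0 of the 10 FGF genes were called in either direction. At an unadjusted p under 0.05, 1 of the 10 was lower, *Fgfr3*, against 6.5% of all tested genes, and 0 were higher. DESeq2 called 6.6% of its genes higher and 3.35% lower, and also 0 of the FGF genes, with an adjusted p of 0.0584 for *Fgfr3*. limma voom with sample quality weights called *Fgfr3* lower (log2 fold change −1.07, adjusted p = 0.0293), alone among the 10, where it called 2.58% of all genes lower. The groups overlapped in CPM for all 10, whereas 7.9% of all genes had every SAG mouse above every DMSO mouse and 3.84% had every SAG mouse below. The median log2 fold change was −0.43 over the 10, −0.80 over the 4 receptors, and −0.08 over all tested genes.

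Among the receptors, only the edgeR call on *Fgfr3* changed with the leaving out of DMSO replicate 4. Without it edgeR called *Fgfr3* lower, with a log2 fold change of −1.12 ± 0.27 and an adjusted p of 0.0243 (3 DMSO against 4 SAG), where 2.17% of all genes were called lower. *Fgfr1* then had −1.01 ± 0.30 (edgeR, adjusted p = 0.0641), *Fgfrl1* −0.97 ± 0.35 (edgeR, adjusted p = 0.119), and *Fgfr2* −0.71 ± 0.40 (edgeR, adjusted p = 0.331). In CPM, all SAG mice were then below all remaining DMSO mice for 3 of the 10, *Fgfr1*, *Fgfr3*, and *Fgfrl1*, and for 11.2% of all tested genes. In the other 7 fits that left out 1 mouse, 0 of the 10 were called.

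**Figure D2:**
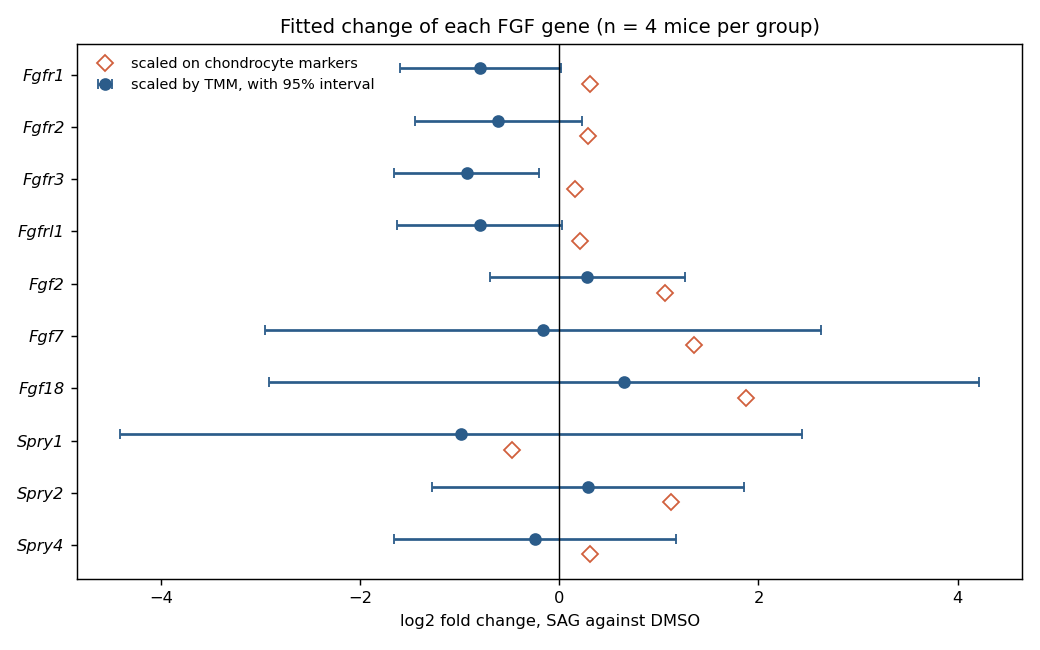
Fitted log2 fold change of SAG against DMSO for each FGF gene, with the edgeR estimate and 95% interval in blue and the estimate after scaling on 15 chondrocyte markers as open diamonds. Only the interval of *Fgfr3* (−1.66 to −0.20) lies wholly below 0, and with the other scaling the 4 receptors stand at 0.16 to 0.31.

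Levels can be compared between genes only per length, here as CPM per kb of merged exon. With DMSO the order was *Fgfr3* at 50.9 ± 18.7, *Fgfr1* at 42.1 ± 18.9, *Fgfrl1* at 41.0 ± 14.7, and *Fgfr2* at 25.2 ± 7.74 (SD, n = 4), which placed them above 90.5%, 88.8%, 88.5%, and 81.8% of tested genes. With SAG the order was the same, at 26.7 ± 9.34, 24.3 ± 9.12, 23.6 ± 10.5, and 16.4 ± 7.84. *Fgfr3*, *Fgfr1*, and *Fgfrl1* lay within 1 SD of their neighbours among these 3 in both groups, whereas *Fgfrl1* was above *Fgfr2* in 8 of 8 mice. Within single mice *Fgfr3* was above *Fgfr1* in 7 of 8 and *Fgfr1* above *Fgfr2* in 8 of 8. The order of *Fgfr3* and *Fgfr1* with SAG depended on the length used, since per kb of the median coding transcript they stood at 28.3 and 28.9.

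The other 6 were far lower per kb of exon. With DMSO *Spry2* stood at 2.43, *Fgf2* at 2.37, *Spry4* at 1.5, *Fgf18* at 1.34, *Spry1* at 1.05, and *Fgf7* at 0.625, and their SDs overlapped those of their neighbours in this order. With SAG *Spry2* was at 2.96, *Fgf2* at 2.87, *Fgf18* at 2.11, *Spry4* at 1.26, *Fgf7* at 0.557, and *Spry1* at 0.531. The *Fgf2* place rested on its long annotated exons of 6.525 kb, and per kb of its median coding transcript of 0.535 kb it would stand at 28.9 with DMSO and 35 with SAG.

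As shares of the summed level per kb of the 3 tyrosine kinase receptors, *Fgfr3* made up 42.9 ± 3.01% with DMSO and 40.3 ± 3.35% with SAG. *Fgfr1* made up 34.7 ± 3.66% and 36.3 ± 2.99%, and *Fgfr2* 22.3 ± 5.62% and 23.4 ± 4.69% (SD, n = 4). The groups overlapped for each, and the makeup of this receptor set differed between treatments by less than the SD between mice. The log2 ratio of *Fgfr3* to *Fgfr1* counts does not depend on library scaling, and it was 0.06 ± 0.14 with DMSO and −0.09 ± 0.16 with SAG. The difference of −0.16 did not pass an exact 2-sided permutation test (p = 0.171 over 70 relabellings, with 0.0286 the smallest p possible). The ratios were 0.912, 1.11, 1.04, and 1.13 with DMSO and 0.826, 1.01, 0.882, and 1.04 with SAG.

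The makeup of the Sprouty genes was less steady. *Spry2* held 31.7% to 52.9% of their summed level with DMSO and 47.1% to 85.5% with SAG, *Spry4* held 19.7% to 67.2% and 10.1% to 43.0%, and *Spry1* held 0% to 33.2% and 3.77% to 27.4%. These groups overlapped as well.

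**Figure D3:**
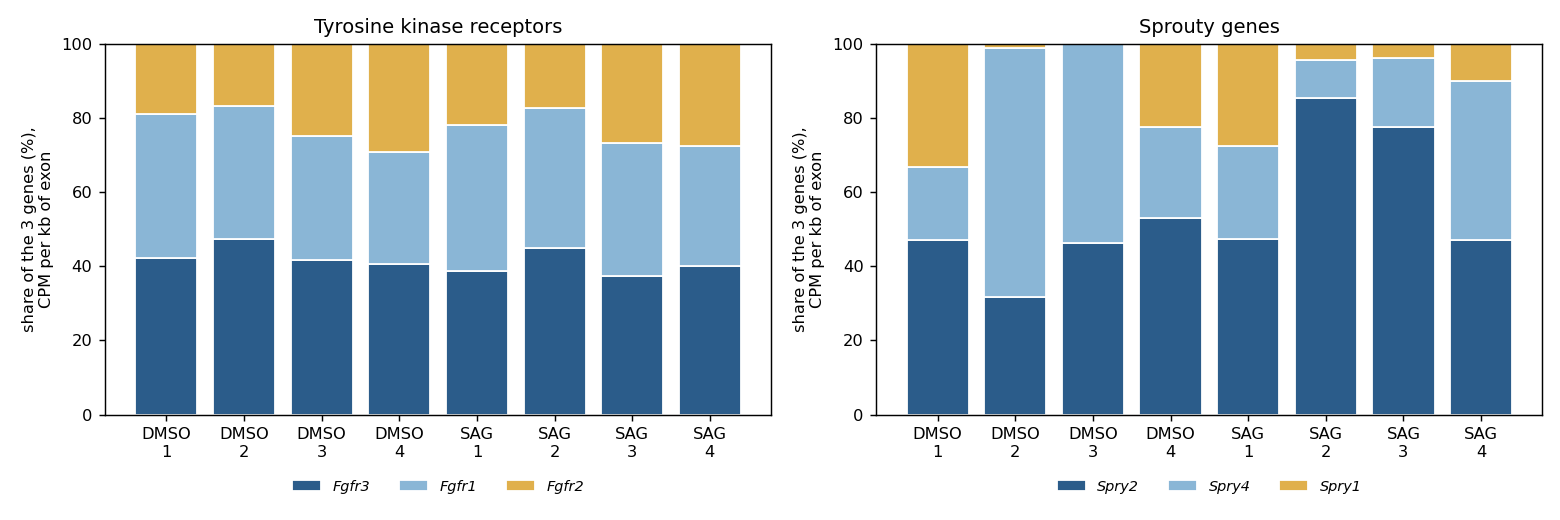
Share (%) of each gene in the summed level per kb of exon of the 3 tyrosine kinase receptors (left) and of the 3 Sprouty genes (right), with 1 bar per mouse. *Fgfr3* takes 37.5% to 47.3% of the receptor sum in every mouse, while the *Spry1* share runs from 0% to 33.2%.

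The receptors were then set beside the chondrocyte markers. The mean log2 CPM of the 15 markers was 10.90 ± 0.61 with DMSO and 9.82 ± 0.66 with SAG, a difference of −1.08 with overlapping groups. In edgeR none of the 15 was called after adjustment, and 13 were lower at an unadjusted p under 0.05. DESeq2 called 7 lower, and limma voom called all but *Acan*, *Comp*, *Col11a2*, *Cnmd*, and *Ucma*. The median edgeR log2 fold change of the 15 was −1.02. *Fgfr3* followed this mean most closely, with a root mean square (RMS) difference of 0.142 between the centred log2 profiles over the 8 mice. The RMS difference was 0.239 for *Fgfr1*, 0.281 for *Fgfrl1*, and 0.412 for *Fgfr2*, and *Fgfr1* and *Fgfr3* differed from each other by 0.152. These are descriptions over 8 libraries that share a treatment contrast.

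Relative to the marker mean, the SAG minus DMSO difference was 0.32 for *Fgfr1*, 0.33 for *Fgfr2*, 0.16 for *Fgfr3*, and 0.21 for *Fgfrl1* on the log2 scale. It was 1.13 for *Fgf2*, 0.59 for *Spry4*, and 1.85 for *Spry2*, and the groups overlapped for all 10 FGF genes. When the libraries were scaled on these markers in edgeR, the median of all tested genes moved from −0.08 to 1.05, *Fgfr1* stood at 0.31, *Fgfr2* at 0.28, *Fgfr3* at 0.16, and *Fgfrl1* at 0.21, and 0 of the 10 were called. Relative to that median the 4 receptors were lower under either scaling. Whether the chondrocyte share of the RNA had a part in the receptor values was not tested.

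**Figure D4:**
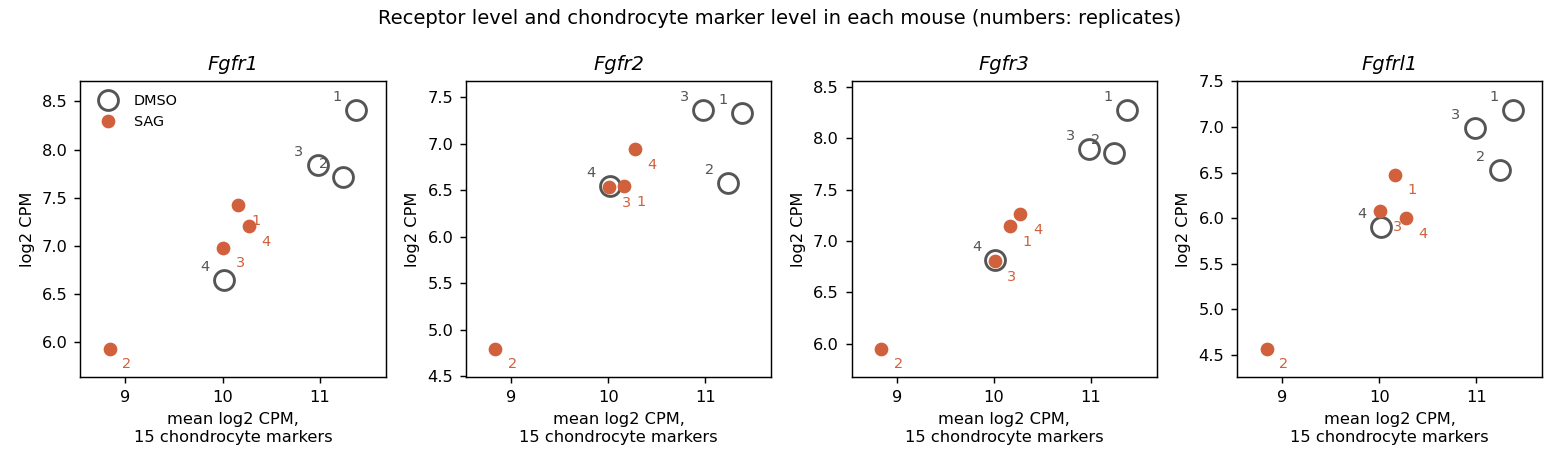
Log2 CPM of each receptor against the mean log2 CPM of 15 chondrocyte markers in each mouse, with DMSO as open rings, SAG as filled points, and replicate numbers beside them. DMSO replicate 4 lies with SAG replicates 1, 3, and 4 on both axes, and SAG replicate 2 is lowest on both.

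The genes with profiles nearest to *Fgfr3*, among 13883 with a mean count of at least 50, were *Col27a1*, a fibrillar collagen of cartilage (RMS difference 0.0893), *Arhgap32* (0.113), and *Hapln1*, the link protein of the aggrecan network (0.124). *Col27a1* had a log2 fold change of −0.93 and *Hapln1* of −1.03. Nearest to *Fgfr1* were *Ddr2*, a collagen receptor kinase (0.120), *Pkd2*, a calcium channel (0.139), and *Kif7*, a ciliary kinesin of the Hh pathway (0.141). *Fgfr2* had less close neighbours, *Cd109* (0.153), *Nr1d2* (0.155), and *Igfbp7* (0.158). None of these 9 genes was called by edgeR, with adjusted p from 0.143 to 0.642. *Hapln1*, which is also 1 of the 15 chondrocyte markers, was called by DESeq2 (adjusted p = 0.0290) and limma voom (adjusted p = 0.0312). The others are given from edgeR only.

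The rest of the pathway was read from fixed lists, beside which stand the background shares of 2.62% higher and 0.266% lower and the all-gene median of −0.08. Of 15 other secreted FGFs, 10 were in the table and 6 were tested, *Fgf1*, *Fgf3*, *Fgf6*, *Fgf9*, *Fgf10*, and *Fgf15*. None was called by edgeR or DESeq2 or had an unadjusted p under 0.05, and their median log2 fold change was −0.38. The smallest p belonged to *Fgf10*, a mesenchymal ligand of FGFR2, at 1.53 ± 1.36 CPM with DMSO and 3.37 ± 3.49 CPM with SAG (edgeR, adjusted p = 0.692). *Fgf9*, a growth plate ligand of FGFR3, stood at 3.19 ± 2.29 and 2.35 ± 0.903 CPM. *Fgf5*, *Fgf8*, *Fgf16*, and *Fgf23* were too low to be tested. The 4 intracellular FGF homologous factors were all tested, with 0 called, 0 at an unadjusted p under 0.05, and a median of −0.94.

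Among co-receptors and binding proteins, 12 of 15 listed were tested and 0 called, 11 of them below 0, with 3 lower at an unadjusted p under 0.05, 1 called lower by DESeq2 (*Sdc3*), and a median log2 fold change of −0.80. *Sdc3*, a heparan sulfate syndecan of the growth plate, was at 532 ± 150 CPM with DMSO and 258 ± 68.9 CPM with SAG and had the smallest p, with a log2 fold change of −1.05 ± 0.26 (edgeR, adjusted p = 0.0595). Its SAG mice all lay below its DMSO mice. *Sdc4* stood at −1.0 ± 0.38 (edgeR, adjusted p = 0.202) and *Hspg2*, the perlecan core protein that stores FGFs in cartilage matrix, at −0.93 ± 0.35 (edgeR, adjusted p = 0.211). *Fgfr4*, the remaining kinase receptor, was at 3.19 ± 1.17 and 1.87 ± 2.03 CPM.

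Adaptors and kinases downstream of the receptors had the opposite balance. All 23 were tested, 17 were above 0, the median log2 fold change was 0.46, 2 rose, and 0 fell. DESeq2 called 4 higher and 1 lower. Besides *Cbl*, limma voom called *Rps6ka1*, *Map2k1*, *Mapk3*, *Rps6ka2*, *Grb2*, and *Sos2*, all above 0 in edgeR, and *Plcg1*, at −0.92 in edgeR. *Rps6ka1*, an ERK-activated ribosomal S6 kinase, rose from 106 ± 22.9 to 273 ± 55.7 CPM, a log2 fold change of 1.37 ± 0.22 (edgeR, adjusted p = 0.0108). *Map2k1*, which encodes the ERK-activating kinase MEK1, rose from 23.7 ± 3.32 to 51.4 ± 11.2 CPM, by 1.12 ± 0.24 (edgeR, adjusted p = 0.0329). The groups did not overlap for either gene. *Cbl*, a ubiquitin ligase of activated receptors, stood at 1.04 ± 0.25 (edgeR, adjusted p = 0.0543). It was called higher by DESeq2 (adjusted p = 0.00979) and was also called by limma voom (adjusted p = 0.00260). These genes are active in many cell types, neutrophils among them, and the neutrophil marker sum of every SAG mouse was above that of every DMSO mouse. Its part in these values was not tested.

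Of the 13 tested genes in the list of other inhibitors, *Lgals3* was called. Whether *Lgals3* acts as an inhibitor of FGF signaling was not tested, and its place in the list does not show it. This gene encodes galectin-3, a sugar-binding lectin abundant in myeloid cells as well as in cartilage, and rose from 90.4 ± 19.9 to 190 ± 23.9 CPM, by 1.07 ± 0.20 on the log2 scale (edgeR, adjusted p = 0.0187). *Dusp6*, the ERK phosphatase that FGF signaling induces, was at 23.3 ± 7.49 CPM with DMSO and 46.2 ± 14.3 CPM with SAG. Its log2 fold change of 0.99 ± 0.31 missed the threshold in edgeR (adjusted p = 0.120), and limma voom called it (adjusted p = 0.0234). *Nf1*, a RAS GTPase-activating protein, stood at −0.73 ± 0.22 (edgeR, adjusted p = 0.104), and all its SAG mice lay below all its DMSO mice. DESeq2 called 1 gene of this list higher, *Lgals3*, and 1 lower, *Nf1* (DESeq2, adjusted p = 0.0218), and limma voom also called *Nf1* lower (adjusted p = 0.0336). The median of this list was −0.20.

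None of 11 tested FGF and ERK target genes was called by edgeR or DESeq2, an unadjusted p under 0.05 was reached by 2 above 0 and 2 below 0, and their median log2 fold change was −0.35. Beside *Dusp6*, which is in this list too, the smallest p were those of *Etv1*, at 15.5 ± 2.03 CPM with DMSO and 6.89 ± 3.56 CPM with SAG (edgeR, adjusted p = 0.199), and of *Fosl1*, at 39.2 ± 32.8 and 91.1 ± 34.9 CPM (edgeR, adjusted p = 0.264). *Etv4* and *Etv5*, ETS factors that FGF signaling induces along with *Dusp6* and the Sprouty genes, were at 1.29 ± 1.03 and 37.7 ± 18.1 CPM with DMSO and at 0.131 ± 0.262 and 27.1 ± 11.9 CPM with SAG. Thus the Sprouty genes, *Etv1*, *Etv4*, *Etv5*, and *Dusp6* did not all lie on 1 side of 0, and none of them passed in edgeR. From the target list limma voom called *Dusp6* (adjusted p = 0.0234), *Fosl1* (adjusted p = 0.0127), and *Ccnd1* (adjusted p = 0.0421). Their edgeR log2 fold changes were 0.99, 1.22, and −0.93. Of all 15421 genes, limma voom called 995 higher and 398 lower.

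Among 10 tested growth plate genes around *Fgfr3*, 1 fell and 0 rose, with a median of −0.75. *Ihh*, the Hh ligand of prehypertrophic chondrocytes, fell by 3.63 ± 0.73 on the log2 scale (edgeR, adjusted p = 0.0238), and it missed the threshold with limma voom (adjusted p = 0.0514). DESeq2 called 2 of the list lower, *Ihh* and *Pth1r* (DESeq2, adjusted p = 0.0111 for *Pth1r*). *Pth1r*, the receptor of parathyroid hormone–related protein, stood at −1.31 ± 0.38 (edgeR, adjusted p = 0.0928), and *Npr2*, the C-type natriuretic peptide receptor, whose signaling opposes FGFR3, at −1.18 ± 0.42 (edgeR, adjusted p = 0.177). Unlike edgeR, limma voom called both *Pth1r* (adjusted p = 0.0115) and *Npr2* (adjusted p = 0.0242).

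**Figure D5:**
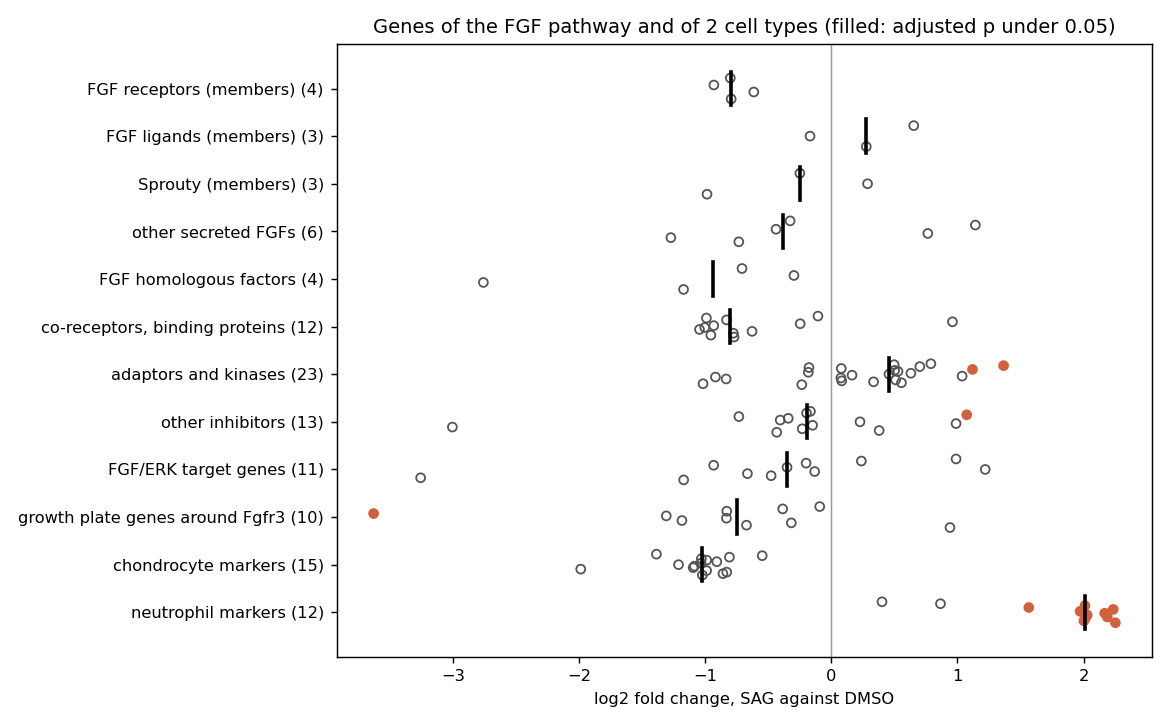
Log2 fold change of SAG against DMSO for each tested gene of the FGF pathway lists and of 2 marker lists; list sizes are in brackets, filled points passed at an edgeR adjusted p under 0.05, and vertical dashes are list medians. The receptors (median −0.80) lie near the chondrocyte markers (−1.02), the adaptors and kinases lie mostly above 0 (0.46), and the neutrophil markers lie highest (2.01).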

How the data were processed

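RNA was extracted with the RNeasy Micro kit and libraries were made with a strand-keeping SMARTer kit for total RNA at low input. The authors deposited whole-number counts per gene and library, without normalization. The submitters' processing notes list kallisto, DESeq2, and GRCm38 with no role or version, and whether the counts were rounded estimates or used strand is not given in the sources used here. GENCODE M21 supplied gene places and lengths, and RefSeq (GRCm38.p6) supplied promoter windows.

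Groups and replicate numbers came from the labels. The main test was edgeR 4.0.16 (R 4.3.3): filterByExpr, TMM scaling, robust quasi-likelihood fit on all 15421 genes, Benjamini-Hochberg adjustment, threshold 0.05. Each library is 1 mouse. CPM used the TMM-scaled library sizes, and log2 CPM a prior count of 2. The common dispersion was 0.466. Scripts were tested on simulated data. Detection limits cover counting error only, and no rows without a gene name were found (0). Replicate numbers were not taken as a pairing in the main test, since the labels state none. Same-numbered deviations correlated at 0.0109 to 0.125, which cannot show whether the mice were matched in the experiment. Libraries of 1 group differed by far more than sampling noise (chi-square per degree of freedom 108 to 507).

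The FGF genes and the lists were chosen with earlier results of these data known. Named genes were the 10 FGF genes, from each pathway list those with an adjusted p under 0.05 and otherwise up to 3 with the smallest p, the 3 nearest profiles of *Fgfr1*, *Fgfr2*, and *Fgfr3*, and leading markers; *Fgf9*, *Fgfr4*, *Etv4*, and *Etv5* were added for their known roles after their values were seen. A gene that the rule would name is not reported here. Alternatives were DESeq2 1.42.0, limma 3.58.1 voom, a replicate block, other scalings and filters, a minimum log2 fold change of 1 in either direction, and leaving out each mouse.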

Additional observations from a re-analysis of the deposited data

Results flagged for a closer look

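The *Fgf18* level of SAG replicate 4 stood far from the other SAG mice. It was 7.05 CPM against 1.22 CPM for the next highest, a gap of 0.93 of the range of the group, above Dixon's 95% critical value. This was 1 flag among 22 groups of 4 values tested, of which chance gives 1.1. Without that mouse the fitted log2 fold change of *Fgf18* was −0.69 in place of 0.65, and neither passed the test.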

How the results depend on the processing

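The count of FGF genes called higher was 0 in every alternative that was run. The count called lower was 1 with limma voom, 0 to 1 when each mouse was left out in turn (1 without DMSO replicate 4), and 0 in the others, the gene being *Fgfr3*. Over all genes, DESeq2 called 812 higher and 413 lower, limma voom 995 and 398, a filter of at least 10 counts in every library 558 and 87, leave-one-out fits 80 to 1017 and 4 to 343, and scaling on chondrocyte markers 1 and 0, against 404 and 41. Apart from that scaling, the 4 receptors were below 0 in 64 of 64 values. With that scaling *Fgfr1* was 0.31, *Fgfr2* 0.28, *Fgfr3* 0.16, *Fgfrl1* 0.21, *Fgf7* 1.35, and *Spry4* 0.31. *Spry1* was 2.53 with limma voom. A replicate block gave *Spry1* 1.21 and called 0 of the FGF genes, with 334 genes higher and 18 lower in all. The labels state no pairing by replicate number. Leaving out single mice turned the sign of *Fgf7* (−0.89 to 0.42; 0.42 without DMSO replicate 1 and 0.24 without SAG replicate 3), *Spry2* (−0.058 to 1.03; −0.058 without DMSO replicate 2), *Spry4* (−0.99 to 0.13; 0.13 without DMSO replicate 4 and 0.044 without SAG replicate 2), *Fgf2* (−0.13 to 0.58; −0.13 without SAG replicate 4), and *Fgf18* (−0.69 to 1.86; −0.69 without SAG replicate 4). The cause of these changes was not tested. Under the filter of 10 counts in every library 7 of the 10 genes could be tested. The count of FGF genes with all SAG mice below all DMSO mice was 0, and 3 without DMSO replicate 4, an alternative chosen after seeing the data. The log2 ratio of *Fgfr3* to *Fgfr1* kept its sign and its side of the threshold throughout.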
